A study of Mus musculus with 30 samples.

Results

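Prostaglandin E2 (PGE2) synthesis and sensing was followed through 10 genes, chosen by symbol: the cyclooxygenases Ptgs1 and Ptgs2, the terminal synthases Ptges, Ptges2 and Ptges3, the degrading enzyme Hpgd, and the receptors Ptger1, Ptger2, Ptger3 and Ptger4. All 10 were found once among the 48440 genes of the count table, and all 10 passed the filter on low counts, which kept 16862 genes. RNA was measured in 30 tumors grown in mice of C57BL/6 background from 5 fibrosarcoma cell lines. Each line was derived from a single tumor induced with the carcinogen 3-methylcholanthrene (MCA). Lines MCA-943 (4 tumors) and MCA-969 (8) are classed as non-sensitive to NK1.1+ cells, and lines MCA-948 (8), MCA-970 (6) and MCA-972 (4) as sensitive. The mouse strain is recorded as Ncr1Cre for MCA-943 and as Ncr1Cre R26DTA for the other lines, on a C57BL/6 background throughout, so strain and line cannot be told apart for MCA-943. In the R26DTA strain, Cre driven by Ncr1, the gene of NKp46, switches on diphtheria toxin A and so removes NKp46+ cells. The labels do not state whether the strain is that of the host or of the mouse in which the line arose. The study gives genotypes for the mice that developed the primary tumors. Its transplants of MCA lines went into C57BL/6 mice, with or without an antibody that depletes NK1.1+ cells. Which sequenced tumors had that antibody is not stated in the sources used here. The design text names wild-type and NK cell-deficient hosts, but the letters W and a in the tumor titles are not decoded and were kept as letters. Ages of the mice are not given in the sources used here. Cell lines were transplanted under the skin of the right flank, per the methods, but the labels do not tie the sequenced tumors to animals. P-values measure only the spread between these tumors.

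PGE2 is a lipid made from membrane arachidonic acid. Cyclooxygenases convert arachidonic acid to PGH2, and prostaglandin E synthases convert PGH2 to PGE2, which is then inactivated inside cells by 15-hydroxyprostaglandin dehydrogenase. Secreted PGE2 acts through the G protein-coupled receptors EP1 to EP4, and in tumors it is known as a mediator of inflammation and a brake on NK and T cells. Fibroblasts are a well-known source of inducible COX-2.

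Before RNA extraction hematopoietic cells had been removed with CD45 beads. The counts on genes summed to 27745104 in the shallowest tumor and to 46537062 in the deepest. Fibroblast markers summed to between 9877 and 64467 CPM, read counts relative to the library size scaled by edgeR's TMM factors, in every tumor, and MCA-943 stood highest, with a median of 59186 against 14432 to 36883 in the other lines. Leukocyte markers (Ptprc, Cd52, Laptm5, Coro1a and Cd53) were low but present in all lines, with medians of the summed level of 53.1 CPM in MCA-943, 14.5 in MCA-948, 4.01 in MCA-969, 10.2 in MCA-970 and 13.2 in MCA-972. The epithelial list was highest in MCA-969, at a median of 610.0 CPM, and reached at most 148 CPM in any tumor of the other lines. Its genes did not move together: of 6 listed and 4 tested, Krt8, Krt18 and Epcam were highest in MCA-969. Cdh1, in contrast, was lowest in MCA-969 and highest in MCA-943. In bulk samples, fewer cells of a type and less RNA per cell cannot be told apart. The labels call tumors W-1D and W-2D of MCA-969 sensitive, against the other 6 tumors of that line, and these were kept with their line. Library numbers fall into 3 sets of 10 tumors each, which were treated as possible batches. MCA-943, MCA-970 and MCA-972 each lie in a single set, whereas MCA-948 has 2 tumors in set 2 and 6 in set 3, and MCA-969 has 6 in set 1 and 2 in set 2.

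All 10 genes differed among the 5 lines (edgeR quasi-likelihood F-test, Benjamini-Hochberg adjusted p under 0.05). This was also true of 94.1% of all genes tested, so the count says little about the pathway, and the sizes and orders of the levels are described instead. The line means of log2 CPM ranged over 4.97 for Hpgd, 3.31 for Ptgs2, 3.26 for Ptger2, 3.19 for Ptger3, 2.86 for Ptger4, 2.83 for Ptgs1 and 2.36 for Ptger1. The ranges were 1.34 for Ptges3, 0.93 for Ptges and 0.45 for Ptges2. The median range was 2.84 over the 10 genes and 1.15 over all genes tested.

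**Figure D1:**
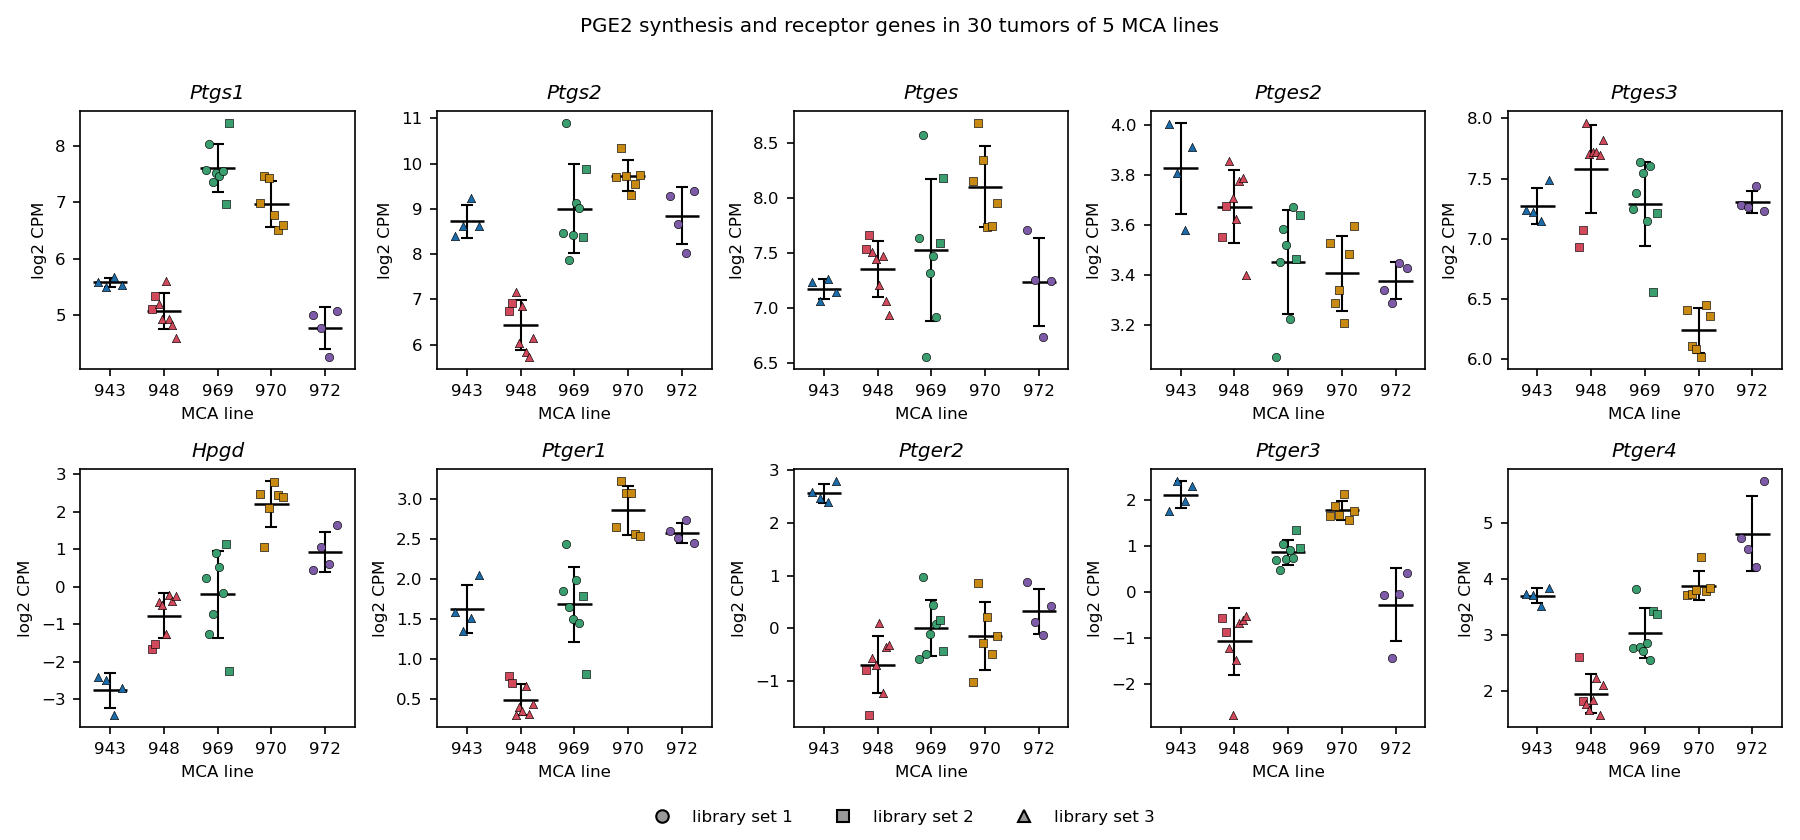
Log2 CPM of the 10 genes in each of the 30 tumors, by line; marker shapes give the library set, horizontal lines the line mean and bars the SD. Ptgs2 and the EP receptors lie lowest in MCA-948, Hpgd lowest in MCA-943, and Ptges and Ptges2 have the narrowest ranges of line means.

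The COX genes did not share an order among the lines. Their promoters are shown here because the pair has the same enzymatic role, from 250 bases before to 30 bases after the annotated start (RefSeq, GRCm38.p6), with motif matches in capitals. Ptgs1 lies at chr2:36230176-36230455, plus strand, and Ptgs2 at chr1:150099781-150100060, plus strand.
Ptgs1: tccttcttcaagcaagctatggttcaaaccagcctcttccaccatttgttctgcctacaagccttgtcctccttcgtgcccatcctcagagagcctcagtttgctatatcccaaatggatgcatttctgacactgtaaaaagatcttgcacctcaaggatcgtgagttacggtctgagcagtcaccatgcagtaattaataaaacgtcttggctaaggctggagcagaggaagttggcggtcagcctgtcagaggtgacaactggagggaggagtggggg
Ptgs2: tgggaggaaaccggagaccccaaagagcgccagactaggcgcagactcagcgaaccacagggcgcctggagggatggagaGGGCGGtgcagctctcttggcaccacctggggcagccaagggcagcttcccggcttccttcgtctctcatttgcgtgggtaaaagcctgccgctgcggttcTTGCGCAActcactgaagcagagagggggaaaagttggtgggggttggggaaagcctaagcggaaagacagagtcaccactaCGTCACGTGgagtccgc
The motifs searched on both strands were the TATA box TATAAA, the GC box GGGCGG, the cAMP response element core TGACG, the E-box CACGTG, the CCAAT box CCAAT and a C/EBP motif TTNNGCAA. Of 32851 promoters of the same length, 13.1% held the first, 34.7% the GC box, 19.9% the cAMP response element core, 6.79% the E-box, 36.1% the CCAAT box and 10.4% the C/EBP motif. In Ptgs2 the GC box lay at positions -170 to -165, the C/EBP motif, which reads alike on both strands, at -69 to -62, the cAMP response element core at 14 to 18 on the minus strand and the overlapping E-box at 17 to 22, counting the start as position 1. None of these letters occurred in the Ptgs1 window. A match is a description of the letters only.

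Ptgs2, the inducible COX-2, was abundant in 4 lines and low in MCA-948. The 8 MCA-948 tumors ranged from 52.5 to 144 CPM with a median of 89.1. The 4 MCA-943 tumors had 338 (W-2G), 395 (a-1D), 605 (a-1G) and 395 CPM (a-R). MCA-969 ranged from 232 to 1913 CPM around a median of 435. Every MCA-948 tumor was below every other tumor, and a single MCA-969 tumor, W-R, stood above all others. MCA-970 ranged from 638 to 1310 CPM with a median of 844. The 4 MCA-972 tumors had 261 (2G, the title without a letter), 624 (a-1), 407 (a-1G) and 672 CPM (a-R). The log2 fold change was 2.24 ± 0.39 (SE) for MCA-943 over MCA-948 (edgeR adjusted p = 1.06e-05). For MCA-948 it was -2.82 ± 0.35 over MCA-969 (edgeR adjusted p = 6.75e-08), -3.25 ± 0.37 over MCA-970 (8.71e-09) and -2.42 ± 0.39 over MCA-972 (3.89e-06). With the library set as a covariate the last of these was -2.07 ± 0.82 (edgeR adjusted p = 0.0551). Neighbours above MCA-948 in the order of levels (MCA-943, MCA-972, MCA-969 and MCA-970) did not pass the test against each other. MCA-943 over MCA-970 was called at -1.01 ± 0.44 (edgeR adjusted p = 0.0468), and this call was lost in 8 of 30 fits that left out a tumor: MCA-943 W-2G, a-1D or a-R, MCA-948 a-2G, or MCA-970 W-1D, W-2D, W-R or a-2G. It was also lost with DESeq2 (adjusted p = 0.0587), without a filter on low counts (edgeR adjusted p = 0.0808) and with the library set as a covariate, at -0.57 ± 0.72 (edgeR adjusted p = 0.546).

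Ptgs1, the constitutive COX-1, split the lines differently. MCA-969 was highest, ranging from 126 to 338 CPM with a median of 185, followed by MCA-970 with 91.6 to 175 and a median of 118. The other 3 lines lay lower. The 4 MCA-943 tumors had 48.4 (W-2G), 45.4 (a-1D), 51.5 (a-1G) and 46.4 CPM (a-R). MCA-948 ranged from 24.3 to 48.9 CPM with a median of 32.5. The 4 MCA-972 tumors had 19.1 (2G), 32.3 (a-1), 27.2 (a-1G) and 33.7 CPM (a-R). Tumors of MCA-969 and MCA-970 did not overlap with tumors of the other 3 lines. MCA-969 exceeded MCA-972 by a log2 fold change of 2.85 ± 0.25 (edgeR adjusted p = 1.37e-10) and MCA-948 over MCA-969 was -2.56 ± 0.18 (edgeR adjusted p = 1.47e-12). MCA-969 and MCA-970 differed by 0.65 ± 0.19 and MCA-943 and MCA-948 by 0.48 ± 0.21, both under the fold threshold. Of its exon bases, 148 are shared with Gm43621 on the opposite strand.

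Per kilobase of transcript, Ptgs2 exceeded Ptgs1 in every tumor, by a ratio that differed between lines. Ratios of CPM per kb ranged from 5.94 to 9.97 in MCA-943, from 1.56 to 3.33 in MCA-948, from 1.201 to 6.25 in MCA-969, from 4.16 to 7.49 in MCA-970 and from 11.6 to 16.9 in MCA-972. MCA-972 was above every tumor of every other line. Over the 10 pairs of lines, the log ratio differed in 8 pairs by a two-sided exact permutation test (adjusted p from 0.00666 to 0.0357, adjusted over the 10 pairs). It did not for MCA-948 and MCA-969 (ratio of ratios 0.97, exact permutation p = 0.891) or for MCA-943 and MCA-970 (1.29, exact permutation p = 0.124). For MCA-943 against MCA-972, with 4 tumors each, the exact permutation p of 0.0286 is the smallest possible. Within library set 1 the 6 MCA-969 tumors had 1.201 to 6.25 and the 4 MCA-972 tumors 11.6 to 16.9. Within set 3 the 4 MCA-943 tumors had 5.94 to 9.97 and the 6 MCA-948 tumors 1.56 to 3.33. This ratio was compared after its values had been seen.

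**Figure D2:**
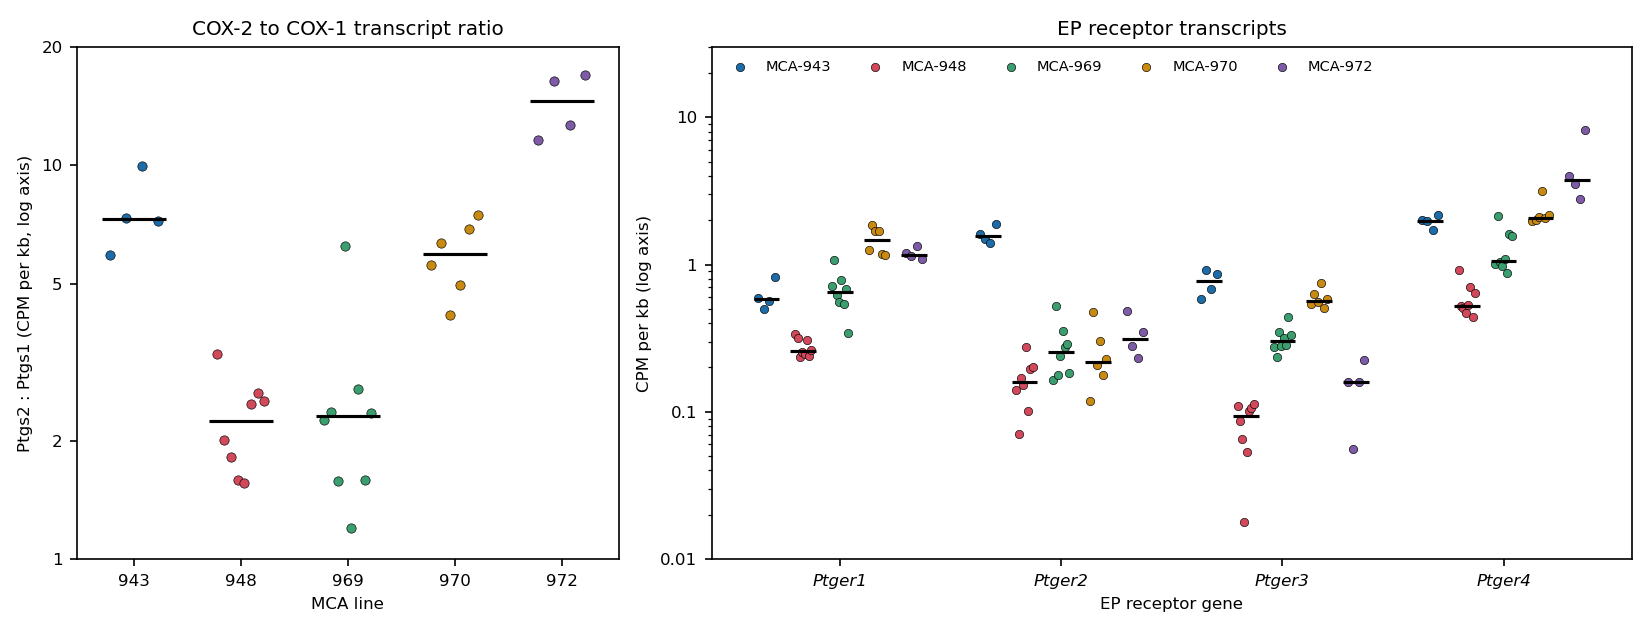
Left, ratio of Ptgs2 to Ptgs1 in CPM per kb (log axis) by line; right, CPM per kb (log axis) of the 4 EP receptor genes; each point is a tumor and each bar the median of its line. The ratio lies between 11.6 and 16.9 in MCA-972, and Ptger2 is highest in MCA-943 whereas Ptger4 is highest in MCA-972.

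Of the terminal synthases, Ptges and Ptges2 were called in no pair of lines, whereas Ptges3 was called in 4. Ptges encodes the inducible microsomal synthase that works beside COX-2. Its levels ranged from 134 to 154 CPM in MCA-943, 122 to 203 in MCA-948, 93.9 to 383 in MCA-969, 214 to 412 in MCA-970 and 107 to 210 in MCA-972. MCA-970 lay above every tumor of MCA-943, MCA-948 and MCA-972 and overlapped only with MCA-969. By the fold threshold, however, 0 of 10 pairs were called by edgeR, although 3 pairs passed adjusted p under 0.05, all with MCA-970 as the higher line. The widest was -0.97 ± 0.27 for MCA-943 over MCA-970 (edgeR adjusted p = 0.00306), which was past the threshold, at -1.01 ± 0.28, without a filter on low counts. Ptges2, a membrane-associated synthase, lay between 8.33 and 15.996 CPM in all 30 tumors and was also called in 0 pairs. Its widest fitted difference was 0.46 ± 0.12 for MCA-943 over MCA-972 (edgeR adjusted p = 0.00207), and 6 pairs passed adjusted p under 0.05 with no fold threshold, those of MCA-943 or MCA-948 over each of the other 3 lines. With the library set as a covariate, neither Ptges (edgeR adjusted p = 0.448) nor Ptges2 (0.400) differed among the lines.

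Ptges3, the cytosolic synthase that is also the HSP90 cochaperone p23, was lowest in MCA-970, at 64.6 to 87.6 CPM with a median of 75.5. MCA-948 ranged from 122 to 249 CPM with a median of 209, and MCA-969 from 94.4 to 199 with a median of 159. The 4 MCA-943 tumors had 151 (W-2G), 149.7 (a-1D), 142 (a-1G) and 180.0 CPM (a-R), and MCA-972 had 173 (2G), 156 (a-1), 153 (a-1G) and 150.2 (a-R). No MCA-970 tumor overlapped with any other tumor, and MCA-970 was called lower against each of the other 4 lines. All MCA-970 tumors belong to library set 2, and Ptges3 moved with that set. The 2 MCA-948 tumors of set 2 had 122 and 135 CPM against 208 to 249 in set 3, and the 2 MCA-969 tumors of set 2 had 94.4 and 149 against 142 to 199 in set 1. Within set 2, MCA-948 over MCA-970 was 0.77 ± 0.17 and MCA-969 over MCA-970 was 0.68 ± 0.17, under the fold threshold in both, against 1.37 ± 0.15 and 1.08 ± 0.15 over all tumors. No set holds both MCA-970 and MCA-943 or MCA-972. With the library set as a covariate over all tumors, MCA-943 over MCA-970 was 0.26 ± 0.18 (edgeR adjusted p = 0.25) and MCA-970 over MCA-972 was -0.54 ± 0.18 (0.0238), so that none of the 4 calls was kept in that fit. Over all tumors, the call against MCA-943, at 1.03 ± 0.17, was lost without MCA-943 a-R or MCA-970 W-2D or a-1D.

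Hpgd, which inactivates PGE2, had the widest range of line means of the 10 genes and was close to undetected in MCA-943. The 4 MCA-943 tumors held 4 (W-2G), 5 (a-1D), 1 (a-1G) and 4 counts (a-R), 14 in all, or 0.136, 0.123, 0.0378 and 0.098 CPM. A count of 3 per library, the limit that a count of 0 allows, corresponds to a mean of 0.0811 CPM in this line. MCA-948 ranged from 0.261 to 0.811 CPM with a median of 0.678, and MCA-969 from 0.155 to 2.14 with a median of 0.985. MCA-970 was highest, with 2.02 to 6.94 CPM, a median of 5.34 and 1008 counts in all. The 4 MCA-972 tumors had 1.46 (2G), 1.31 (a-1), 2.03 (a-1G) and 3.06 CPM (a-R). Every MCA-943 tumor was below every other tumor, and MCA-970 overlapped with MCA-972 and MCA-969 only at its lowest tumor. MCA-943 over MCA-970 was -5.55 ± 0.63 (edgeR adjusted p = 1.07e-08) and MCA-948 over MCA-970 was -3.08 ± 0.39 (edgeR adjusted p = 4.33e-08). MCA-970 over MCA-972 was 1.32 ± 0.45 (edgeR adjusted p = 0.0169), and this call was lost without MCA-972 a-1 or 2G and with the library set as a covariate (1.13 ± 0.71, edgeR adjusted p = 0.246). With the title code as a replicate block it was 0.92 ± 0.55 (edgeR adjusted p = 0.193). In MCA-948 the 2 tumors of set 2 had 0.261 and 0.295 CPM against 0.367 to 0.811 in set 3. Relative to Ptges per kilobase, Hpgd stood at a median of 0.185% in MCA-943 and 4.74% in MCA-970. No tumor had more Hpgd than 7.57% of its Ptges level on that scale.

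The EP receptors were each lowest, by line mean, in MCA-948, and the highest line mean was in MCA-943 for Ptger2 and Ptger3, in MCA-972 for Ptger4 and in MCA-970 for Ptger1. EP2 and EP4 both raise cAMP through Gs. Their promoters are shown in the same window as above, Ptger2 at chr14:44987861-44988140, plus strand, and Ptger4 at chr15:5244158-5244437, minus strand, with matches in capitals.
Ptger2: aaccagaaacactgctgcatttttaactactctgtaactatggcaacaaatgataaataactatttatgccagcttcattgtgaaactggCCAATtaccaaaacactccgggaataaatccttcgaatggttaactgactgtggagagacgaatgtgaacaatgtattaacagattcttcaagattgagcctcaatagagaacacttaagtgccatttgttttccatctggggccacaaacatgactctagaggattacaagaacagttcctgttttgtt
Ptger4: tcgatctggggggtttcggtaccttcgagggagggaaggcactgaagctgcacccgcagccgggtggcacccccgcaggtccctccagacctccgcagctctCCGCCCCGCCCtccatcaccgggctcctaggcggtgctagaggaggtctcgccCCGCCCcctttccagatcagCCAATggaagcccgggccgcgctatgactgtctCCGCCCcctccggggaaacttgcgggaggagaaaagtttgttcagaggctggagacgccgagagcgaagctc
Ptger2 held a CCAAT box at -160 to -156. Ptger4 held a CCAAT box at -75 to -71 and 4 matches to the GC box on the minus strand, a pair of which share a base at -143. The share of G and C was 37.9% in the Ptger2 window and 66.8% in that of Ptger4. RefSeq promoters were found for 9 of the 10 genes.

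Ptger2 was a feature of MCA-943. Its 4 tumors had 5.96 (W-2G), 5.50 (a-1D), 5.18 (a-1G) and 6.91 CPM (a-R). The other 26 tumors reached at most 1.92 CPM, with medians of 0.590 in MCA-948, 0.942 in MCA-969, 0.805 in MCA-970 and 1.15 in MCA-972. MCA-943 did not overlap with any other line, and its log2 fold change was 3.28 ± 0.30 over MCA-948 (edgeR adjusted p = 1.24e-10), 2.54 ± 0.30 over MCA-969 (1.92e-08), 2.67 ± 0.33 over MCA-970 (5e-08) and 2.25 ± 0.37 over MCA-972 (6.81e-06). With the library set as a covariate the last was 1.77 ± 0.73 (edgeR adjusted p = 0.0609). Among the other lines only MCA-948 over MCA-972 was called, at -1.02 ± 0.32 (edgeR adjusted p = 0.00626), and this call was lost in 5 of 30 fits, without MCA-943 a-1G, MCA-948 a-2G, a-R or W-2G, or MCA-972 a-1. It was also lost with the title code as a replicate block (-0.77 ± 0.36, edgeR adjusted p = 0.0741), without a filter on low counts (-0.99 ± 0.31) and with the library set as a covariate (-1.35 ± 0.65, edgeR adjusted p = 0.114). Leukocyte markers, 5 of 5 of which differed among the lines and none of which was at 0 in every tumor, were also highest in MCA-943. Their summed level ranged from 22.5 to 95.1 CPM there, from 4.68 to 31.3 in MCA-948, from 3.22 to 14.6 in MCA-969, from 5.47 to 79.4 in MCA-970 and from 6.51 to 25.6 in MCA-972, and their part in the Ptger2 difference was not tested. By median summed level, T and NK cell markers were also highest in MCA-943 (6.77 CPM). Macrophage markers were highest in MCA-948 (97.0 CPM against 60.0 in MCA-943) and neutrophil markers in MCA-970 (6.69). Tnf, of the COX-2 inducer list described below, averaged 2.89 ± 0.55 CPM in MCA-943 (SD, n = 4). It was below 1 CPM on average in the other lines, and its cell source was not tested.

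Ptger4 was highest in MCA-972, with 18.6 (2G), 26.6 (a-1), 23.3 (a-1G) and 54.1 CPM (a-R). MCA-970 ranged from 13.1 to 21.03 CPM with a median of 13.9. The 4 MCA-943 tumors had 13.4 (W-2G), 13.1 (a-1D), 11.4 (a-1G) and 14.3 CPM (a-R). MCA-969 ranged from 5.85 to 14.2 CPM with a median of 7.04, and MCA-948 from 2.91 to 6.07 with a median of 3.49. MCA-948 over MCA-972 was -2.97 ± 0.23 (edgeR adjusted p = 6.22e-12), and MCA-948 over MCA-970 was -1.93 ± 0.21 (edgeR adjusted p = 4.92e-09). MCA-972 over its neighbour MCA-970 was called, the fitted MCA-970 over MCA-972 value being -1.04 ± 0.25 (edgeR adjusted p = 0.000958), but it rested on tumor a-R, without which it was -0.61 and not called, and it was -0.92 ± 0.21 with limma-voom and -0.99 ± 0.24 without a filter on low counts. MCA-943 over MCA-972, at -1.23 ± 0.28 (edgeR adjusted p = 0.000407), likewise became -0.81 and was not called without a-R, and had an adjusted p of 0.067 with the library set as a covariate (edgeR). Of the exon bases of Ptger4, 15.3% are shared with the pseudogene Gm15937 on the opposite strand, and the strand setting of the counting is not stated.

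Ptger3, whose product EP3 lowers cAMP through Gi, was highest in MCA-943, with 3.32 (W-2G), 5.25 (a-1D), 3.89 (a-1G) and 4.87 CPM (a-R). MCA-970 ranged from 2.89 to 4.28 CPM with a median of 3.23 and did not pass the test against MCA-943 (log2 fold change 0.36 ± 0.29, edgeR adjusted p = 0.279). MCA-969 ranged from 1.34 to 2.502 CPM with a median of 1.71. MCA-972 had 0.912 (2G), 0.901 (a-1), 0.318 (a-1G) and 1.28 CPM (a-R), and MCA-948 ranged from 0.101 to 0.638 with a median of 0.533. Tumors of MCA-943, MCA-970 and MCA-969 were all above every tumor of MCA-972 and MCA-948. MCA-943 over MCA-948 was 3.22 ± 0.28 (edgeR adjusted p = 3.15e-11), and MCA-970 over MCA-972 was 1.99 ± 0.32 (edgeR adjusted p = 8.49e-06). MCA-969 over MCA-972 was 1.07 ± 0.30 (edgeR adjusted p = 0.00357) and fell under the fold threshold within library set 1, at 0.96 ± 0.30, as well as without MCA-969 W-1D, without MCA-972 a-1G, and without both MCA-969 tumors labelled sensitive (0.97 ± 0.31).

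Ptger1, whose product EP1 mobilises calcium, was highest in MCA-970, at 5.76 to 9.27 CPM with a median of 7.29. MCA-972 had 6.62 (2G), 5.98 (a-1), 5.62 (a-1G) and 5.40 CPM (a-R). MCA-969 ranged from 1.702 to 5.36 CPM with a median of 3.22, and MCA-943 had 2.95 (W-2G), 2.49 (a-1D), 2.80 (a-1G) and 4.07 (a-R). MCA-948 was lowest, at 1.17 to 1.67 CPM. MCA-948 over MCA-970 was -2.42 ± 0.18 (edgeR adjusted p = 1.05e-12). MCA-948 over MCA-969 was -1.27 ± 0.17 over all tumors but -0.65 ± 0.36 within library set 2 (edgeR adjusted p = 1.55e-07 and 0.237). As the strand setting of the counting is not stated, reads from the opposite strand at this gene cannot be told apart from its own, and its level is uncertain.

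Receptor make-up was read per kilobase over Ptger2, Ptger3 and Ptger4, leaving out Ptger1 for this uncertainty. Ptger4 made up 44.1% to 47.7% of the 3 in MCA-943, 59.2% to 78.4% in MCA-948, 61.3% to 75.1% in MCA-969, 64.4% to 75.1% in MCA-970 and 86.2% to 93.4% in MCA-972. It was thus the largest of the 3 in every tumor on this scale. Ptger2 made up 34.1% to 38.4% in MCA-943 and 3.99% to 10.4% in MCA-972. Ptger3 made up 17.8% to 20.5% in MCA-970 and 1.46% to 5.03% in MCA-972. The summed CPM per kb of these 3 receptors was 0.835 ± 0.17 (SD, n = 8) in MCA-948, 1.88 ± 0.52 (SD, n = 8) in MCA-969, 3.09 ± 0.58 (SD, n = 6) in MCA-970, 4.32 ± 0.45 (SD, n = 4) in MCA-943 and 5.09 ± 2.48 (SD, n = 4) in MCA-972. MCA-972 ranged from 3.19 to 8.71, the latter in tumor a-R, and overlapped with MCA-943 and MCA-970. By median, MCA-943 stood at 4.30 and MCA-972 at 4.24, so the order of these lines by mean was not kept.

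The comparisons of pairs of lines are summarised by counts, where calls required an adjusted p under 0.05 together with a log2 fold change of 1 or more in size. Between MCA-943 and MCA-948, 6 of 10 genes were called against 29% of all genes. The corresponding counts were 4 against 27% for MCA-943 and MCA-969, 6 against 27.3% for MCA-943 and MCA-970, and 4 against 25.6% for MCA-943 and MCA-972. They were 5 against 20.8% for MCA-948 and MCA-969, 7 against 29.4% for MCA-948 and MCA-970, and 5 against 26.8% for MCA-948 and MCA-972. They were 3 against 21.4% for MCA-969 and MCA-970, 3 against 20.6% for MCA-969 and MCA-972, and 5 against 17.6% for MCA-970 and MCA-972. In all, 48 of 100 gene and pair tests were called, 8 for Hpgd, 7 each for Ptger3 and Ptger4, 6 each for Ptgs1 and Ptger1, 5 each for Ptgs2 and Ptger2, 4 for Ptges3 and 0 for Ptges and Ptges2. Pairs share lines and are not independent.

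MCA-948 was called lower in more of the 10 genes than higher in each of its 4 pairs, as it was over all genes tested. It was lower than MCA-943 in 5 genes, against 17.7% of all genes, and lower than MCA-969 in 5 (16.8%). It was lower than MCA-970 in 6 (19.8%) and lower than MCA-972 in 5 (18.5%). In the same order, it was higher in 1, 0, 1 and 0 genes. Of the 16862 genes tested, 1897, 660, 1626 and 1395 were called higher in MCA-948, and 2993, 2841, 3333 and 3118 lower. Ptgs2, Ptger1 and Ptger4 were called lower in MCA-948 in all 4 pairs, although for Ptger4 the call against MCA-969 (-1.12 ± 0.20) was lost without MCA-969 W-R, at -0.98. With the library set as a covariate, 2 more of these calls were lost, those of Ptger1 against MCA-969 (-0.65 ± 0.31, edgeR adjusted p = 0.125) and of Ptgs2 against MCA-972 (edgeR adjusted p = 0.0551). Fibroblast markers were also called lower in MCA-948, 7 of 8 against MCA-943, 1 against MCA-969, 6 against MCA-970 and 6 against MCA-972, with 0 higher, and none of the 8 was at 0 in every tumor. Their summed level ranged from 11917 to 16938 CPM in MCA-948, from 9877 to 17698 in MCA-969, from 24604 to 35054 in MCA-970, from 31175 to 41744 in MCA-972 and from 56669 to 64467 in MCA-943, and their part in the result was not tested. By line mean, MCA-948 was lowest for 5 of the 10 genes and for 24.4% of all genes tested, and MCA-970 was highest for 4 of the 10 and for 18.6% of all genes tested.

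**Figure D3:**
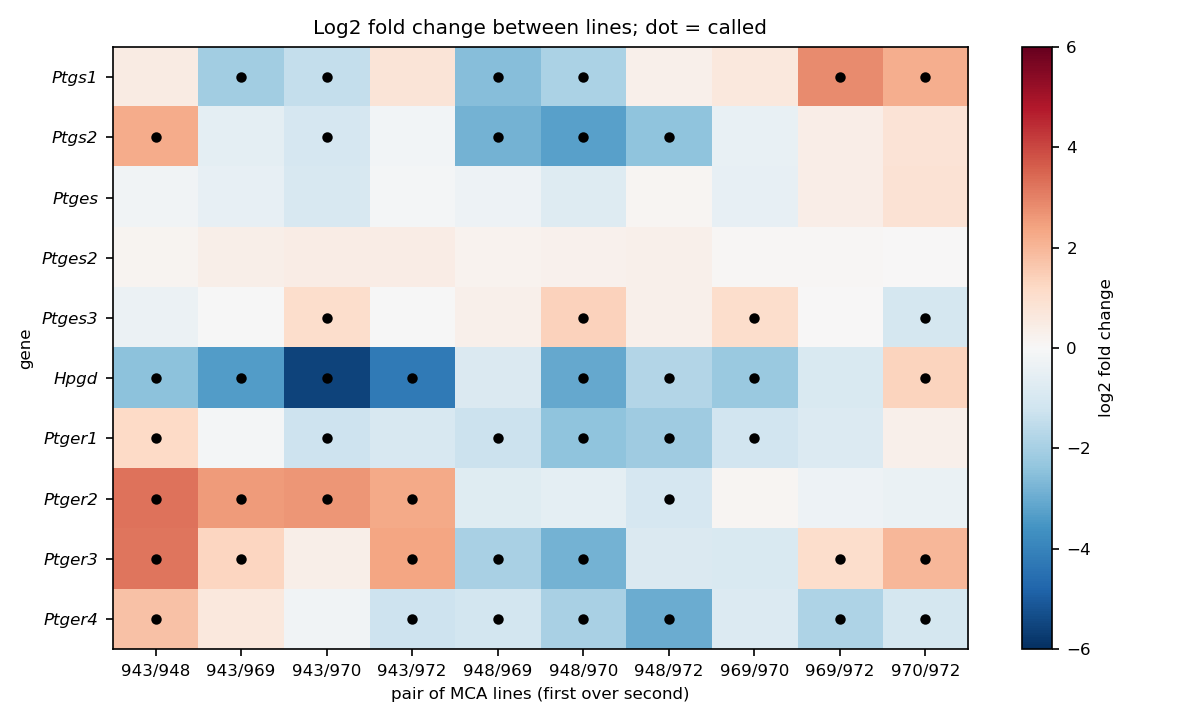
Log2 fold change of each gene in the 10 pairs of lines (colour; red higher in the first-named line, blue higher in the second), with a dot where the pair was called. Hpgd is called in 8 pairs and Ptges and Ptges2 in none, and the columns with MCA-948 hold most of the calls of Ptgs2, Ptger1 and Ptger4.

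The study sets the non-sensitive lines against the sensitive ones. In the 6 comparisons of MCA-943 or MCA-969 with MCA-948, MCA-970 or MCA-972, 0 of the 10 genes had calls of a single direction throughout, against 0.878% of all genes. The line means overlapped between the classes for all 10 genes. The largest differences of non-sensitive minus sensitive line means of log2 CPM were -2.27 for Hpgd, 1.46 for Ptger2 and 1.35 for Ptger3 (exact permutation p = 0.3, 0.2 and 0.3 over the 5 lines, two-sided). With 2 lines against 3 the smallest p is 0.1, so this design cannot reach 0.05. For Ptger2 the difference is carried by MCA-943, since MCA-969 lies among the sensitive lines.

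Between the title letters, 0 of the 10 genes were called in the 26 tumors of the 4 lines that carry both letters (edgeR with the line in the model), against 0.23% of all genes, and 2 had an unadjusted p under 0.05. These were Ptges, with 0.48 ± 0.13 for W over a on the log2 scale (edgeR adjusted p = 0.219), and Ptgs1, with 0.34 ± 0.12 (edgeR adjusted p = 0.442). DESeq2 and limma-voom called 0 as well, each with 2 at an unadjusted p under 0.05, and edgeR with the library set as a covariate called 0 with 4. Of the T and NK cell markers, 7 listed and 5 tested, 3 were called higher in W tumors (Ncr1, Nkg7 and Gzmb) and 0 lower, at low levels. The summed level of the list ranged from 0.743 to 20.6 CPM in the 12 W tumors, with a median of 1.498, and from 0.189 to 9.97 in the 14 a tumors, with a median of 0.475. Ncr1, the gene of NKp46, was detected in every W tumor and listed at 0 in 11 of the 14 a tumors. The part of these cells in the values of Ptges and Ptgs1 was not tested. In the test of whether the letter difference itself varied between MCA-948, MCA-969 and MCA-970, the lowest edgeR adjusted p was 0.278, for Ptger4.

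Within lines, Ptgs2 and Ptges were compared tumor by tumor, as partners in PGE2 synthesis. Pearson's r was 0.48 in MCA-948 (rho 0.55, exact permutation p = 0.211 and 0.171, n = 8), 0.83 in MCA-969 (rho 0.69, exact permutation p = 0.00987 and 0.0694, n = 8) and 0.90 in MCA-970 (rho 0.83, exact permutation p = 0.00972 and 0.0583, n = 6). None passed adjustment over the 18 relations computed (lowest adjusted exact permutation p = 0.0888). Without the 2 tumors farthest from the median of Ptgs2, r was 0.25, 0.36 and 0.74 (exact permutation p = 0.608, 0.494 and 0.292, n = 6, 6 and 4), so in MCA-969 the relation did not hold without them. In MCA-970 only 4 tumors were left, too few to tell whether the relation held without them. In MCA-969, W-R and W-2D had both the highest Ptgs2 (1913 and 939 CPM) and the highest Ptges (383 and 292 CPM). In MCA-970, W-2D led in both, at 1310 and 412 CPM.

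**Figure D4:**
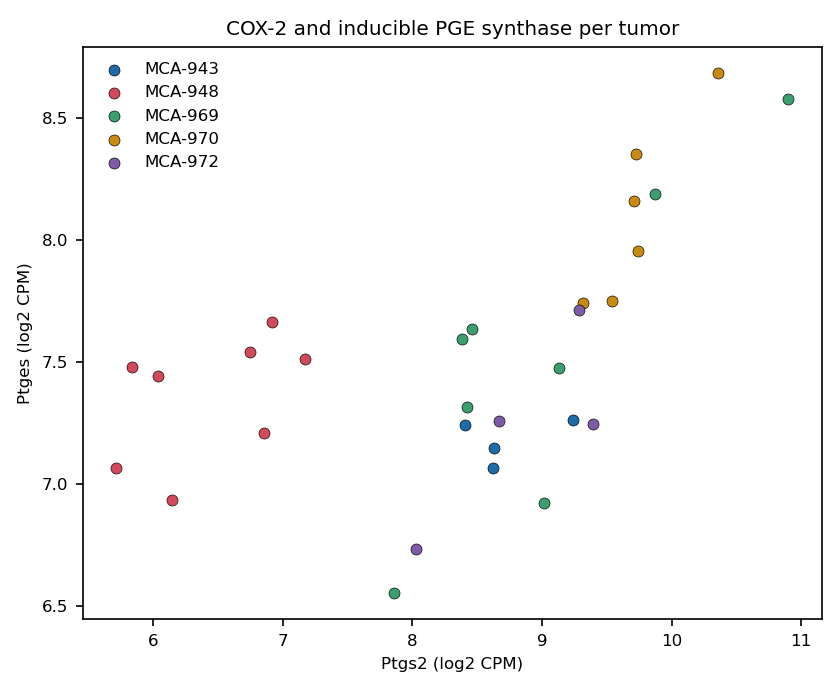
Log2 CPM of Ptgs2 (x axis) and Ptges (y axis) in the 30 tumors, coloured by line. The MCA-948 tumors lie apart at low Ptgs2 with Ptges in the range of the other lines, and the tumors with most Ptges come from MCA-970 and MCA-969.

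The other 15 relations set Ptgs1, Ptgs2, Ptges, Ptger2 and Ptger4 against the mean log2 CPM of the leukocyte markers within the same lines. Pearson's r ranged from -0.70 for Ptger2 in MCA-970 (rho -0.77, exact permutation p = 0.121 and 0.103, n = 6) to 0.39 for Ptger2 in MCA-948 (rho 0.19, exact permutation p = 0.339 and 0.665, n = 8). None had an unadjusted p under 0.05. Ptges in MCA-969 had r = -0.70 (rho -0.43, exact permutation p = 0.0594 and 0.299, n = 8), which became 0.18 without the 2 farthest tumors.

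Genes around PGE2 were counted by list, and the shares called among the lines can be read against the 94.1% of all genes. The list named arachidonate release, mostly phospholipases and lipases, had 12 of 12 tested genes called, of 19 listed. Pla2g7, the secreted platelet-activating factor acetylhydrolase, averaged 1010.2 ± 76.4 CPM (SD, n = 6) in MCA-970 and 154 ± 39.0 (SD, n = 8) in MCA-948. Pla2g4c, a cytosolic phospholipase A2, averaged 6.80 ± 2.48 CPM (SD, n = 4) in MCA-943 and under 1 in each other line. Abhd6, a monoacylglycerol lipase, ran from 8.27 ± 0.36 in MCA-943 to 1.04 ± 0.38 CPM in MCA-948. Pla2g2d was under 1 CPM on average in every line.

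Other prostanoid synthases had 10 of 10 tested genes called, of 12 listed. Cbr1 and Cbr3, carbonyl reductases, were highest in MCA-972, where they averaged 53.9 ± 4.71 and 21.9 ± 6.53 CPM (SD, n = 4), and lowest in MCA-948, at 10.4 ± 2.97 and 0.700 ± 0.41 (SD, n = 8). Akr1c18, an aldo-keto reductase, ran from 0.196 ± 0.0951 CPM in MCA-943 to 11.7 ± 5.70 in MCA-970. The other prostanoid receptors had 3 of 3 tested genes called, of 5 listed, and all 3 were lowest in MCA-948. Ptgir, the prostacyclin receptor, averaged 34.1 ± 3.49 CPM in MCA-943 (SD, n = 4) and 0.942 ± 0.41 in MCA-948 (SD, n = 8). Ptgfr, the PGF2α receptor, averaged 105 ± 22.3 CPM in MCA-972 (SD, n = 4) and 14.98 ± 4.75 in MCA-948 (SD, n = 8). Tbxa2r, the thromboxane receptor, stayed under 1 CPM on average in every line.

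Transport and breakdown had 7 of 7 genes called. Slco2a1, the prostaglandin uptake transporter that feeds Hpgd, was highest where Hpgd was highest, at 189 ± 62.4 CPM in MCA-970 (SD, n = 6), and lowest in MCA-948, at 9.31 ± 3.44 (SD, n = 8). MCA-948 over MCA-970 was -4.35 ± 0.31 for Slco2a1 (edgeR adjusted p = 9.19e-13). Endothelial markers, 6 of 7 of which differed among the lines and none of which was at 0 in every tumor, were also highest in MCA-970, with a median summed level of 468 CPM against medians of 72.7 to 160.5 in the other lines, and their part in the result was not tested. Slco3a1 ran from 38.9 ± 13.3 CPM in MCA-943 to 0.916 ± 0.59 in MCA-948. Abcc4, the efflux pump of PGE2, had the opposite order, with 51.0 ± 6.96 CPM in MCA-948 (SD, n = 8) and 12.3 ± 2.08 in MCA-970 (SD, n = 6).

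COX-2 inducers and regulators had 18 of 19 genes called. Cav1, the caveolar coat protein that binds COX-2, averaged 12063 ± 2555 CPM in MCA-948 (SD, n = 8) against 445 to 1027 in the other lines, and MCA-948 over MCA-970 was 4.15 ± 0.18 (edgeR adjusted p = 1.44e-17). Cebpd, a C/EBP transcription factor, was lowest in MCA-948, at 17.7 ± 3.52 CPM (SD, n = 8), and averaged 173 ± 96.3 in MCA-972 (SD, n = 4). Every MCA-948 tumor had more Cav1 and less Cebpd than any tumor of another line. By line mean, MCA-948 was lowest for 24.4% and highest for 22.7% of all genes tested. The part of either gene in the level of Ptgs2 was not tested. Il1b averaged under 6 CPM in every line and ranged from 0.539 to 9.03 within MCA-943 alone.

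The cAMP response list, genes that EP2 and EP4 signalling can induce, had 16 of 16 genes called. Nr4a3, a nuclear receptor, averaged 121 ± 47.5 CPM in MCA-970 (SD, n = 6), 7.51 ± 3.26 in MCA-948 (SD, n = 8) and 8.23 ± 5.03 in MCA-972 (SD, n = 4). Rgs2, a brake on G protein signalling, was also highest in MCA-970, at 187 ± 66.3 CPM, and lowest in MCA-948, at 16.6 ± 6.62. Areg, an EGF receptor ligand, averaged 73.5 ± 52.7 CPM in MCA-969 (SD, n = 8) and 1.51 ± 0.51 in MCA-972 (SD, n = 4). MCA-943 had a like level of Areg, 1.58 ± 0.29 CPM (SD, n = 4). A relation between the levels of Ptger4 and Areg was not tested. Of the 16 genes, those called lower in MCA-948 numbered 5 against MCA-943, 8 against MCA-969, 7 against MCA-970 and 3 against MCA-972. Over all genes, 17.7%, 16.8%, 19.8% and 18.5% were called lower in these pairs. Those of the 16 called higher numbered 2, 0, 0 and 2, beside 1897, 660, 1626 and 1395 of the 16862 genes tested. The lipoxygenase branch, which turns arachidonic acid into leukotrienes, had 4 of 5 tested genes called, of 8 listed. Ltc4s, the leukotriene C4 synthase, averaged 28.9 ± 2.19 CPM in MCA-943 (SD, n = 4) and under 2 in each other line.

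For genes with a 4-fold range of line means, the closest profiles over the 30 tumors were taken as the smallest mean absolute difference of centred log2 CPM. Ptgs2 was closest to Sgk1, a serum- and glucocorticoid-induced kinase, at 0.43, then to 2210408F21Rik at 0.47 and to Lif, a cytokine of the IL-6 family, at 0.48, where the median over all genes was 1.2. Ptgs1 was closest to Usp2 at 0.34, Hpgd to Ncald at 0.50 and Ptger1 to Ecm1 at 0.19. Ptger2 was closest to Parp9 at 0.40, with Il18bp also at 0.40, and Ptger4 to Fzd8 at 0.31. The points share library sets and lines, so this is a description of likeness only.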

How the data were processed

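RNA of CD45-depleted tumor cell suspensions was sequenced in 30 tumors. Per the labels and methods, the authors aligned the reads to GRCm38 (STAR 2.5.3a) and then ran featureCounts, version 1.5.2 per the labels. Reads with the same molecular identifier were collapsed first, as the column names tell. The strand setting and annotation release are not given in the sources used here. The deposited values are raw counts without normalization, from 27745104 to 46537062 per tumor, and the file also holds gene lengths, used for CPM per kb. Names and overlaps came from GENCODE mouse release 21, which names 48058 of 48440 genes.

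Counts were filtered with filterByExpr, scaled by TMM and fitted with edgeR's robust quasi-likelihood model, with a term for each line (biological coefficient of variation 0.221). P-values were adjusted by Benjamini-Hochberg over all genes. Log2 CPM used a prior count of 2. Library sets are blocks of library numbers. Correlations and the test over 5 lines used exact permutation. The floor of a library was set at 3 counts. Values after ± are SEs for fitted log2 fold changes and SDs between tumors for levels. The floor covers counting error only.

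The 10 genes, the lists, the tests and the alternatives were chosen with earlier results of these data known. All 10 genes are named, with up to 4 called genes of each pathway list that had the widest range of line means and, for genes with a 4-fold range, the 3 closest profiles, of which the text gives the nearest; that of Ptger3 is not reported here. By line, marker lists gave summed medians from 20.2 to 97.0 CPM for macrophages, 0.635 to 6.69 for neutrophils, 0.611 to 6.77 for T and NK cells and 0.0588 to 0.352 for mast cells over the lines.

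On simulated counts, with 200 of 16862 genes shifted by 2 on the log2 scale in MCA-943, edgeR recovered 197 in MCA-943 over MCA-948, with 2 other genes called. For the letter, with a shift of 1.5, 200 were recovered and 1 other gene called. The simulated counts had the same dispersion for every gene, no library set effect and no difference beyond the shift. The measured counts are unlike this, so these numbers do not show how often differences in them are found. Alternatives were DESeq2, limma-voom, other scaling, filters and thresholds, the library set or title code in the model, and leaving out tumors. Models ran in R 4.3.3 (DESeq2 1.42.0, edgeR 4.0.16, limma 3.58.1), and exact tests and plots in Python 3.11.15 (scipy 1.17.1, pandas 2.3.3, matplotlib 3.10.9, numpy 2.4.6).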

Additional observations from a re-analysis of the deposited data

Results flagged for a closer look

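Of 50 groups of tumors of a line tested for a single tumor standing apart (Dixon's test on log2 CPM), 3 were flagged, where chance flags about 1 in 20. Ptges3 was at 94.4 CPM in MCA-969 W-1D, a tumor of library set 2 that the labels call sensitive, against 142 CPM in the next lowest of its line. Ptger3 was at 0.101 CPM in MCA-948 W-2D, from 4 counts, against 0.306 in the next lowest. Ptger4 was at 21.03 CPM in MCA-970 a-1D against 14.3 in the next highest.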

How the results depend on the processing

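The counts of genes that differed among the lines, were called in every comparison between the classes, or were called between the letters stayed at 10, 0 and 0, except that the first was 8 with the library set as a covariate, which lost Ptges and Ptges2. The 48 pairwise calls became 24 at a log2 fold change of 2 or more in size, 68 with no fold threshold, 47 with DESeq2, 48 with limma-voom, 45 with no filter and 36 with the library set as a covariate. Without each tumor in turn they ranged from 46 to 49, with 10, 0 and 0 for the other counts. Of the 24 calls in the 5 pairs that share a library set, the fits within sets gave 20. With the title code as a replicate block, 48 calls were made, of which Hpgd in MCA-969 over MCA-972 (-1.25) and Ptges in MCA-970 over MCA-972 (1.1) were gained; the codes do not pair the tumors (median correlation of deviations 0.012 over 62 pairs of the same code and -0.0062 over 290 others). Of the 18 relations within lines, 0 passed adjustment with a prior count of 0.5 or without the 2 farthest tumors. No fold change of a gene between its highest and lowest line reversed under any alternative. Over all genes, the 148 called in every comparison between the classes became 699 with no fold threshold, 39 at a log2 fold change of 2, 95 at a mean of at least 1 CPM and 82 with the library set as a covariate; the 38 called between the letters became 57 with DESeq2, 55 with no filter, 3 at a mean of at least 1 CPM 11 without MCA-943 W-2G and 27 to 51 without any other tumor of those lines. The cause of the lost calls was not tested. Hpgd in MCA-943, with 1 to 5 counts per tumor, is limited by depth.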
